A study of Homo sapiens with 30 samples.

Results

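Osmolyte transport and its transcription factor were followed through 5 genes, NFAT5, SLC5A3, SLC6A6, AKR1B1 and SGK1, out of 60675 genes in the deposited table. The genes were chosen with measured levels from these same libraries known, so their levels and differences are given as descriptions with no test. Cells that lose water to a salty or concentrated medium take up or make small organic molecules, the compatible osmolytes, which hold water without disturbing proteins. NFAT5, also called TonEBP, is the transcription factor that drives this programme in many tissues by binding tonicity-responsive enhancers. Its known targets include SLC5A3, the sodium-coupled myo-inositol transporter SMIT1, SLC6A6, the sodium- and chloride-coupled taurine transporter TauT, and AKR1B1, the aldose reductase that makes sorbitol from glucose. SGK1 is a kinase induced by hypertonic cell shrinkage and by corticosteroids, and in the distal colon it acts on sodium channels through NEDD4L.

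All libraries came from HT29, a human colorectal adenocarcinoma line, after 24 h of treatment. The treated cells received 70% ethanol extracts of 4 multi-herb formulas of Korean medicine, each at 500, 100 and 20 µg/mL. Banhasasim-tang had 2 libraries at each dose, Sayeok-tang and Bojungikgi-tang had 3 and Yijung-tang had 1. The control was vehicle, with 3 libraries, given as 0.1% DMSO in the sample labels and as 2% DMSO in the series text. The formulas are called Banhasasim, Sayeok, Bojungikgi and Yijung here. The labels number the replicates but do not say that they came from separate cultures, so p-values measure the spread between these libraries only.

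The 30 libraries held 36273849 to 71625585 counts each. All 10 markers of colon epithelium were present, at a summed 9930 to 12700 CPM, the count scaled to a common library total. Most of that sum came from the keratins KRT8 and KRT18, which averaged 5257 and 3076 CPM in Banhasasim at 20 µg/mL. In the same group CDX1, CDX2 and CEACAM5 averaged only 1.19, 6.20 and 5.25 CPM. The 5 kidney tubule markers summed to 0.607 to 1.28 CPM, the 8 of fibroblast and endothelium to 2.38 to 3.68 CPM and the 6 leukocyte markers to 8.97 to 12.9 CPM. The libraries of Banhasasim at 500 µg/mL stood apart in mitochondrial ribosomal RNA, which took 12.9% and 9.41% of counts against at most 1.91% in any other library. Vehicle replicate 1 had the highest share of counts in 86 ribosomal protein genes, 6.91%, and Bojungikgi replicate 2 at 500 µg/mL had the lowest, 3.78%. The 3 vehicle libraries carry a sample code series of their own, so code series and treatment cannot be told apart in any comparison with vehicle. Banhasasim and Yijung share one code series and Sayeok and Bojungikgi another, while the titles place all 30 libraries in the same batch.

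Levels below are CPM after normalisation by the trimmed mean of M values (TMM), and fold changes were fitted over all 30 libraries. All 5 members were among the 18783 genes that passed the filter on low counts. AKR1B1 passed with few counts, because the smallest group holds 1 library and the filter then asks for the minimum in 1 library only. Per kilobase of annotated exon, the mean level was 13.7 CPM for SLC6A6, 13 for SLC5A3, 8.51 for SGK1, 8.25 for NFAT5 and 0.0414 for AKR1B1. On this scale the transporters led and aldose reductase was close to absent. SGK1 has 9992 bases of annotated exon but 3201 in its longest coding transcript. The order of the 4 well-expressed members therefore depends on the length used.

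**Figure D1:**
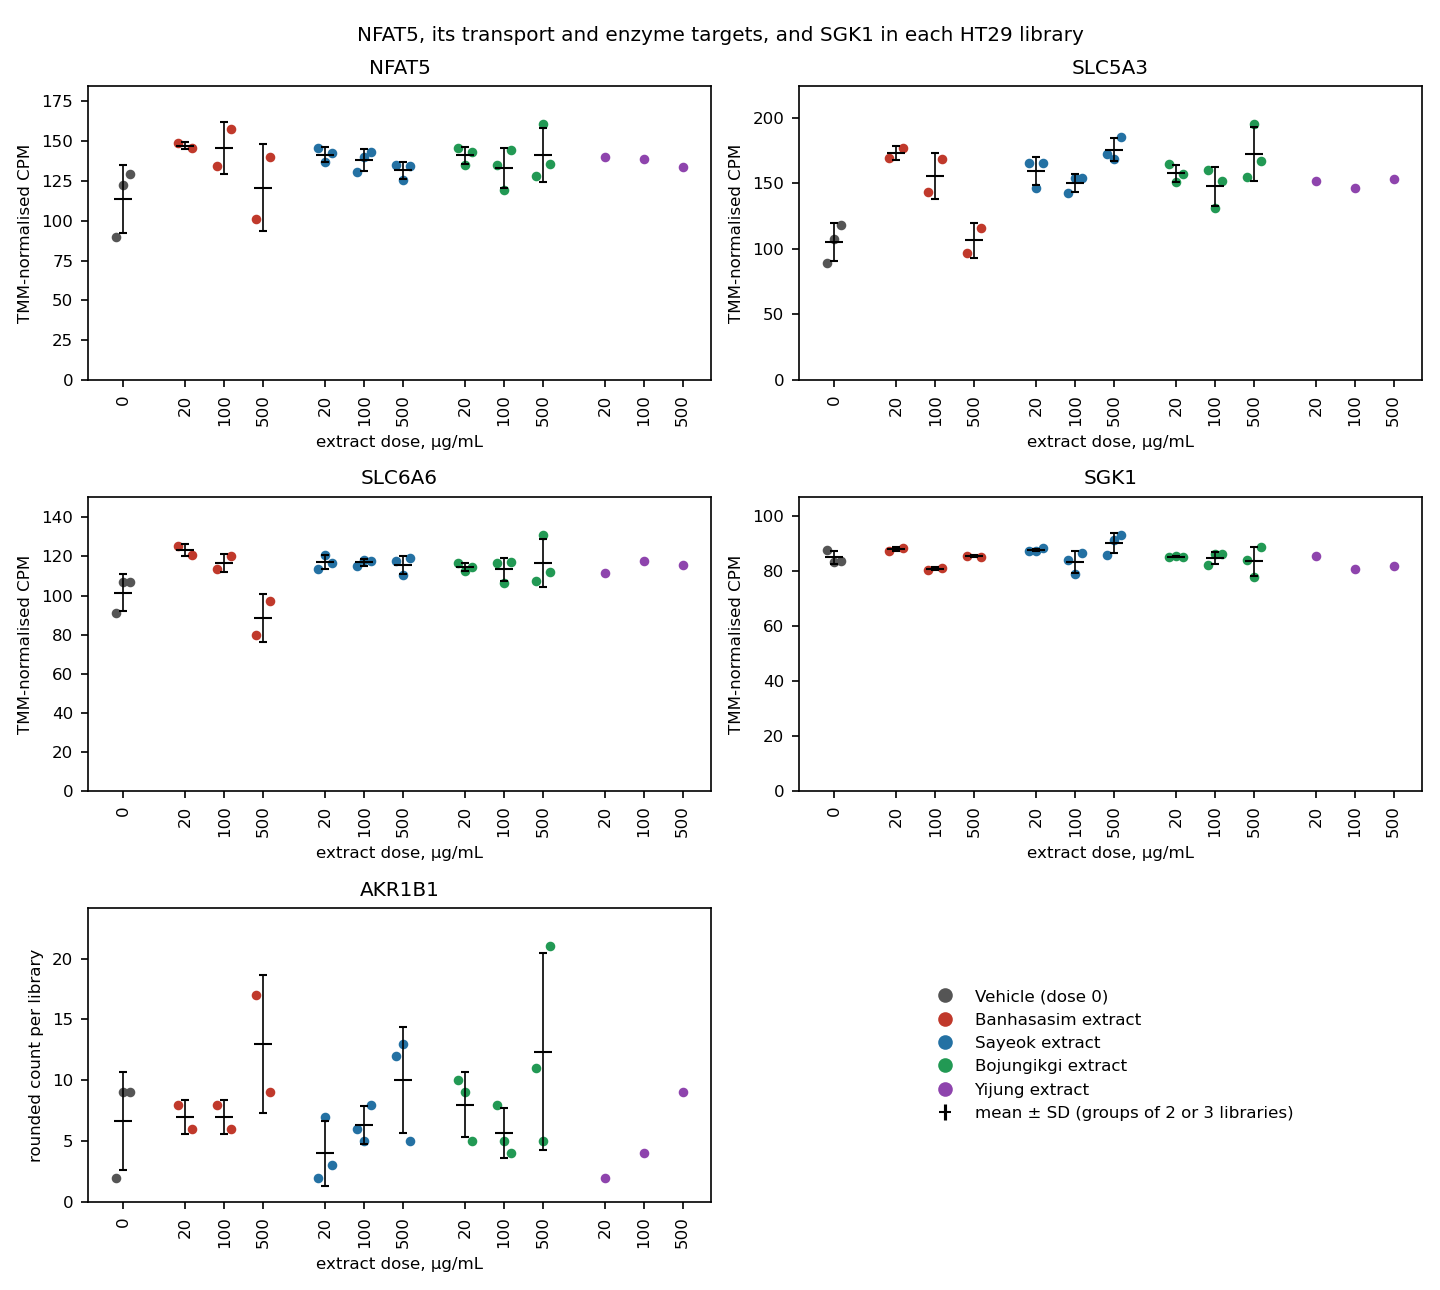
Each point is 1 HT29 library; the x axis gives the extract dose in µg/mL (0 is vehicle) and the y axis the TMM-normalised CPM, or for AKR1B1 the rounded count. Black bars are mean ± SD. SLC5A3 and SLC6A6 stand low in both libraries of Banhasasim at 500 µg/mL, SGK1 stays between 77.8 and 92.8 CPM, and AKR1B1 has 2 to 21 counts.

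NFAT5, the transcription factor, lies at chr16:69565094-69704666 on the plus strand (GRCh38, gene ENSG00000102908) with 16401 bases of annotated exon. It had 101 and 140 CPM in Banhasasim at 500 µg/mL, against 149 and 146 CPM in Banhasasim at 20 µg/mL. The 500 µg/mL libraries were both below the 20 µg/mL ones, but only replicate 2 was far below. The fitted log2 difference was -0.29 ± 0.15 (approximate SE, n = 2 each). It was -0.07 without replicate 2 of the 500 µg/mL group and -0.55 without replicate 3. In Sayeok NFAT5 had 135, 125 and 135 CPM at 500 µg/mL, against 145, 137 and 143 CPM at 20 µg/mL, a log2 difference of -0.11 ± 0.12. In Bojungikgi it had 128, 161 and 136 CPM at 500 µg/mL, against 145, 135 and 143 CPM at 20 µg/mL, a log2 difference of 0.002 ± 0.121, with overlapping groups. Vehicle libraries had 89.6, 122 and 129 CPM, and vehicle replicate 1 was the lowest NFAT5 library of all 30. The mRNA level does not show the activity of the factor, which is known to be set largely by its modification and entry into the nucleus. Of the 13263 stretches of 100 bases in the longest coding NFAT5 transcript, 1489 (11.2%) also occur in the overlapping same-strand gene AC012321.1, so the split of those reads is uncertain. AC012321.1 itself had 411 to 1120 counts per library, against 3644 to 9688 for NFAT5.

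SLC5A3, which brings myo-inositol into the cell with sodium, showed the widest spread between groups among the well-expressed members. The gene (ENSG00000198743) lies at chr21:34073570-34106262 on the plus strand. Its first exon lies inside the first exon of MRPS6, a mitochondrial ribosomal protein gene on the same strand, and the RefSeq promoter windows of both genes (GRCh38.p14) are the same 300 bases. The stretch upstream of the first annotated MRPS6 base, chr21:34073328-34073522 on the plus strand, is shown because SLC5A3 and MRPS6 are compared below. Capitals mark GC boxes, GGGCGG on either strand, overlapping matches included.
SLC5A3 and MRPS6: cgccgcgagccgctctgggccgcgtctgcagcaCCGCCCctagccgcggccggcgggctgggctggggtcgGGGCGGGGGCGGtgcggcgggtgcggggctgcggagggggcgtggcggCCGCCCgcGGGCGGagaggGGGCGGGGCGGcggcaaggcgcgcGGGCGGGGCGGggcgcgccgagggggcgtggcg
These 195 bases hold 9 GC boxes. At least 1 GC box occurs in 45.0% of the 35116 RefSeq promoter windows, each of 300 bases. That share does not say how common 9 boxes are. The core TGGAAA that NFAT proteins recognise, searched on both strands, was found in none of the windows of SLC5A3, SGK1 or AKR1B1 and in 20.7% of all windows. NFAT5 and SLC6A6 were not matched in the promoter table. No match says only that these letters are not in this window.

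SLC5A3 had 97.1 and 116 CPM in Banhasasim at 500 µg/mL, against 169 and 177 CPM in Banhasasim at 20 µg/mL. The groups lay far apart, and the 2 libraries at 100 µg/mL, with 143 and 168 CPM, lay between them. The fitted log2 difference was -0.70 ± 0.12, a ratio of 0.616, and it was -0.58 without replicate 2 and -0.84 without replicate 3 of the 500 µg/mL group. In Sayeok SLC5A3 had 172, 169 and 186 CPM at 500 µg/mL, against 165, 147 and 166 CPM at 20 µg/mL. All 3 libraries at 500 µg/mL were above those at 20 µg/mL, by a fitted log2 difference of 0.14 ± 0.10. In Bojungikgi it had 155, 195 and 167 CPM at 500 µg/mL, against 165, 151 and 157 CPM at 20 µg/mL, and the groups overlapped (log2 difference 0.13 ± 0.10). At 500 µg/mL the Banhasasim and Sayeok libraries thus lay on opposite sides of their own 20 µg/mL libraries, and the log2 differences of the 2 extracts were -0.84 ± 0.16 apart (Banhasasim minus Sayeok), which was not tested. The difference from Bojungikgi was of like size, -0.83 ± 0.16, also not tested.

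Against vehicle the picture for SLC5A3 was another. Vehicle libraries had 89.3, 108 and 118 CPM. All 25 extract libraries outside Banhasasim at 500 µg/mL were above the highest of them, at 131 to 195 CPM with a median of 157. The share of all genes with such an order was not counted. The 2 Banhasasim libraries at 500 µg/mL lay within the vehicle range, at a log2 difference of 0.02 ± 0.11. The difference from vehicle was already present at the lowest dose, with log2 values of 0.72 ± 0.11 for Banhasasim, 0.60 ± 0.10 for Sayeok and 0.58 ± 0.10 for Bojungikgi at 20 µg/mL. At 500 µg/mL it was 0.74 ± 0.10 for Sayeok and 0.71 ± 0.10 for Bojungikgi. In the order of the 13 group means, vehicle (105 CPM) and Banhasasim at 500 µg/mL (106 CPM) were lowest and their libraries interleaved. The next group mean was 146 CPM, in the single library of Yijung at 100 µg/mL, and from there to 176 CPM in Sayeok at 500 µg/mL neighbouring groups overlapped or differed by less than their SD. The single Yijung libraries had 152, 146 and 154 CPM at 20, 100 and 500 µg/mL, inside the range of the other extracts.

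MRPS6, read from the same promoter window, had 47.6 and 45.2 CPM in Banhasasim at 500 µg/mL, against 50.9 and 53.3 CPM at 20 µg/mL. Its log2 difference of -0.17 ± 0.09 did not pass the test (adjusted p = 0.325, edgeR quasi-likelihood test). In Sayeok MRPS6 had 57.1, 61.2 and 59.4 CPM at 500 µg/mL, against 50.8, 49.0 and 51.5 CPM at 20 µg/mL, a log2 difference of 0.23 ± 0.08 that did not pass either (adjusted p = 0.109), although it passed in a fit of only the groups compared (adjusted p = 0.009) and with no filter (adjusted p = 0.0141). In vehicle MRPS6 had 61.5, 51.8 and 52.7 CPM. Against vehicle MRPS6 was lower in Banhasasim at 500 µg/mL, by -0.25 ± 0.09 (adjusted p = 0.0494, edgeR quasi-likelihood test), with groups that did not overlap. That call was lost without vehicle replicate 1 (-0.17) and without replicate 2 (-0.28) or 3 (-0.21) of Banhasasim at 500 µg/mL. It was also lost under RLE factors, TMM from nuclear genes and a fit of only the groups compared (adjusted p = 0.0522, 0.0525 and 0.181). Against vehicle MRPS6 did not pass in Sayeok (adjusted p = 0.393) or Bojungikgi (adjusted p = 0.354). Only 78 of 11477 stretches of 100 bases (0.68%) in the SLC5A3 transcript also occur in MRPS6.

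**Figure D2:**
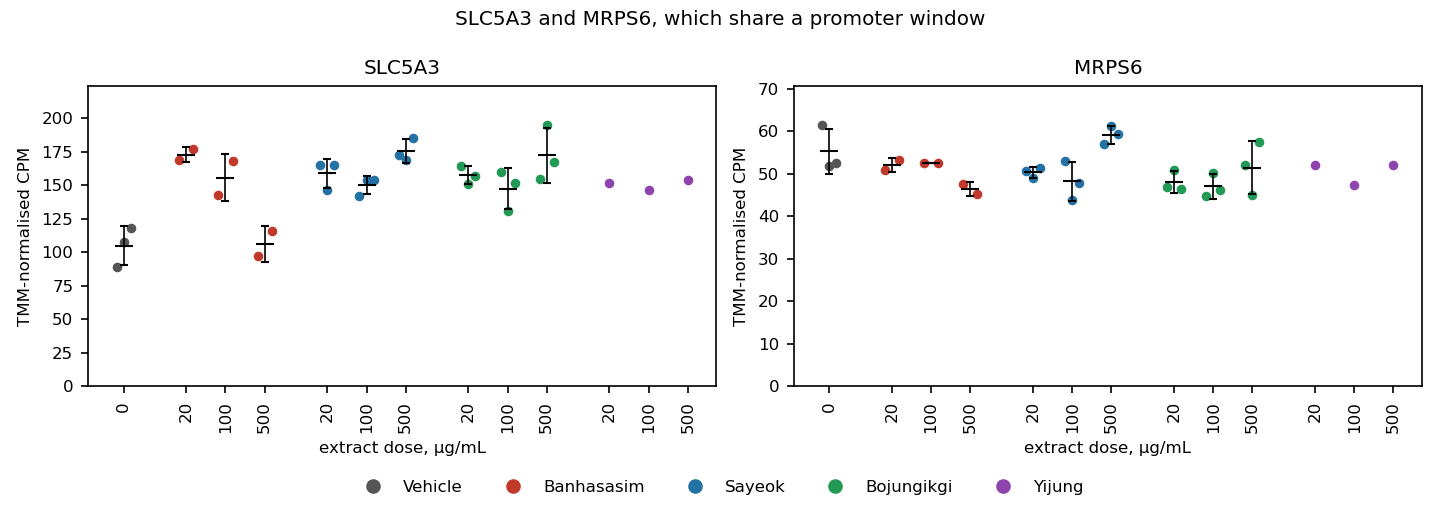
TMM-normalised CPM of SLC5A3 (left) and MRPS6 (right) in each library by extract dose in µg/mL (0 is vehicle); bars are mean ± SD. SLC5A3 averages 106 CPM in Banhasasim at 500 µg/mL and 105 in vehicle, against 146 to 176 in all other groups, while MRPS6 group means lie between 46.4 and 59.2 CPM.

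SLC6A6, which imports taurine, followed SLC5A3 in Banhasasim with a smaller difference. The gene (ENSG00000131389) lies at chr3:14402576-14489349 on the plus strand. It had 80.0 and 97.1 CPM in Banhasasim at 500 µg/mL, against 125 and 121 CPM at 20 µg/mL. Both libraries at 500 µg/mL were below every other extract library, and the log2 difference was -0.48 ± 0.09, a ratio of 0.719. It was -0.34 without replicate 2 and -0.63 without replicate 3 of the 500 µg/mL group. In Sayeok SLC6A6 had 118, 110 and 119 CPM at 500 µg/mL, against 114, 121 and 116 CPM at 20 µg/mL (log2 difference -0.02 ± 0.07). In Bojungikgi it had 107, 131 and 112 CPM at 500 µg/mL, against 117, 113 and 115 CPM at 20 µg/mL (log2 difference 0.03 ± 0.07). The groups overlapped in both extracts. The log2 difference of Banhasasim was apart from that of Sayeok by -0.46 ± 0.11 and from that of Bojungikgi by -0.50 ± 0.11, not tested, and by -0.32 and -0.36 without replicate 2 of Banhasasim at 500 µg/mL. Vehicle libraries had 90.8, 107 and 107 CPM, and 24 of the 25 extract libraries outside Banhasasim at 500 µg/mL were above all of them. How common such an order was among all genes was not counted. Of 6429 stretches in the SLC6A6 transcript, 138 (2.15%) also occur in the opposite-strand gene GRIP2, which had at most 9 counts in any library.

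AKR1B1, aldose reductase, lies at chr7:134442350-134459284 on the minus strand (ENSG00000085662) and was at the edge of detection. It had 17 and 9 counts in Banhasasim at 500 µg/mL, against 8 and 6 counts at 20 µg/mL. In Sayeok it had 12, 13 and 5 counts at 500 µg/mL, against 2, 7 and 3 counts at 20 µg/mL. In Bojungikgi it had 11, 5 and 21 counts at 500 µg/mL, against 10, 9 and 5 counts at 20 µg/mL. Vehicle libraries had 2, 9 and 9 counts. Counts of 3 or fewer, taken here as the floor, occurred in 4 of the 30 libraries and the median was 7.5 counts, so no fold change is given. None of the 1310 stretches of 100 bases of the longest coding AKR1B1 transcript occurs in another gene. Its neighbour AKR1B10, a reductase of retinal and lipid aldehydes, had 3558 to 9249 counts, and AKR1B15 had at most 2.

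SGK1 lies at chr6:134169246-134318112 on the minus strand (ENSG00000118515) and had the narrowest range of the well-expressed members, 77.8 to 92.8 CPM over all 30 libraries. It had 85.5 and 84.9 CPM in Banhasasim at 500 µg/mL, against 87.3 and 88.4 CPM at 20 µg/mL, a log2 difference of -0.04 ± 0.05. In Sayeok it had 85.8, 91.3 and 92.8 CPM at 500 µg/mL, against 87.2, 87.2 and 88.0 CPM at 20 µg/mL. In Bojungikgi it had 83.9, 77.8 and 88.5 CPM at 500 µg/mL, against 84.9, 85.2 and 84.9 CPM at 20 µg/mL. Vehicle libraries had 87.6, 83.2 and 83.7 CPM. Between 500 and 20 µg/mL the log2 difference was 0.04 ± 0.04 in Sayeok and -0.03 ± 0.04 in Bojungikgi, and of the 3 extracts the groups did not overlap in Banhasasim alone. At 100 µg/mL SGK1 had 80.4 and 81.1 CPM in Banhasasim and 84.0, 78.9 and 86.5 CPM in Sayeok, below all 20 µg/mL libraries of the same extract. Those log2 differences of 100 against 20 µg/mL were -0.12 ± 0.05 and -0.07 ± 0.04, larger in size than those of 500 against 20 µg/mL. The share of all genes that did not overlap between 100 and 20 µg/mL was not counted. Among its relatives, SGK2 had 1843 to 3676 counts per library and SGK3 had 208 to 539. The SGK1 transcript shares no stretch of 100 bases with another gene.

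**Figure D3:**
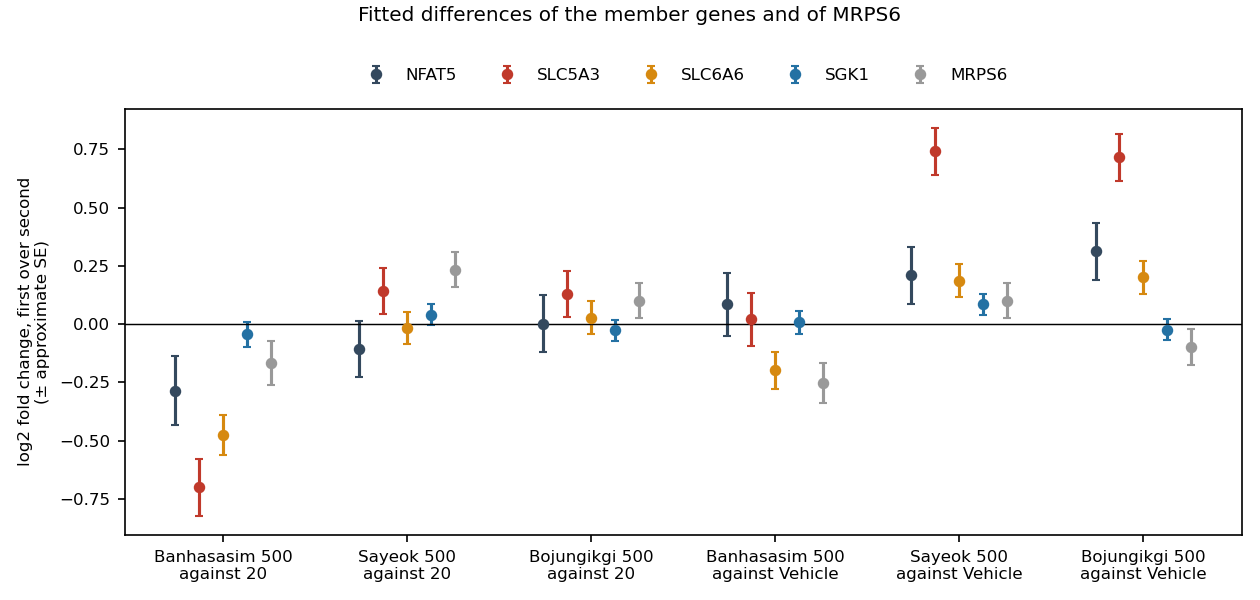
Fitted log2 fold changes (first group over second, ± approximate SE) of NFAT5, SLC5A3, SLC6A6, SGK1 and MRPS6 in 6 comparisons. SLC5A3 stands at -0.70 in Banhasasim between 500 and 20 µg/mL, near 0 in Banhasasim against vehicle, and at 0.74 and 0.71 in Sayeok and Bojungikgi against vehicle.

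The members' separation can be set against all genes. AKR1B1 is left out of the numbers below, since it had only 2 to 21 counts per library. By CPM its libraries at 500 µg/mL lay above those at 20 µg/mL in Banhasasim and in Sayeok. The nearest libraries were 0.1964 and 0.1909 CPM (9 and 8 counts) in Banhasasim and 0.1389 and 0.1254 CPM (5 and 7 counts) in Sayeok. In Banhasasim they also lay above vehicle, the nearest at 0.1964 and 0.1778 CPM with 9 counts each. With so few counts these orders are not read as a change. In Banhasasim between 500 and 20 µg/mL the other 4 members all had non-overlapping libraries, lower at 500 µg/mL, but with 2 libraries a group 52.7% of the 18783 genes did not overlap, and the members were chosen with this comparison known. In Sayeok 2 of the 4 did not overlap, NFAT5 (lower at 500 µg/mL) and SLC5A3 (higher), beside 22% of all genes. In Bojungikgi none of the 4 did, beside 18.7%. Against vehicle the 500 µg/mL groups overlapped for all 4 in Banhasasim, where 39.7% of all genes did not overlap. They did not overlap for 2 of the 4 in Sayeok (32.9% of all genes) and 2 in Bojungikgi (37.4%). In Sayeok and Bojungikgi these were SLC5A3 and SLC6A6, both above vehicle.

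Several library measures moved with some of the members. The shares of ribosomal protein counts were 6.91%, 5.89% and 5.56% in vehicle, the highest 3 of all 30 libraries. Vehicle replicate 1, highest in that share, was lowest in NFAT5 and SLC5A3, and Bojungikgi replicate 2 at 500 µg/mL, lowest in that share, was highest in NFAT5, SLC5A3 and SLC6A6. SGK1 went the other way, with its lowest level of all 30 libraries, 77.8 CPM, in that Bojungikgi library and 87.6 CPM in vehicle replicate 1. The 4 well-expressed members have 8254 to 16401 bases of exon, and the 2983 genes over 8 kb had a median log2 difference of 0.06 in Sayeok and 0.125 in Bojungikgi at 500 µg/mL against vehicle, beside 0.74 and 0.71 for SLC5A3, 0.21 and 0.31 for NFAT5, 0.19 and 0.20 for SLC6A6 and 0.09 and -0.02 for SGK1. In Banhasasim between 500 and 20 µg/mL that median was -0.08, beside -0.70 for SLC5A3, -0.48 for SLC6A6, -0.29 for NFAT5 and -0.04 for SGK1. In genes over 8 kb the median log2 deviation from the mean of all libraries was -0.097 in replicate 2 of Banhasasim at 500 µg/mL. Replicate 3 had -0.004. Replicate 2 was the lowest extract library in that measure, with only vehicle replicate 1 lower, at -0.159. The ribosomal protein shares of the 2 Banhasasim libraries at 500 µg/mL, 5.43% and 5.25%, lay among those of the other extract libraries. Their mitochondrial ribosomal RNA shares did not. The part of these measures in the members' levels was not tested.

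**Figure D4:**
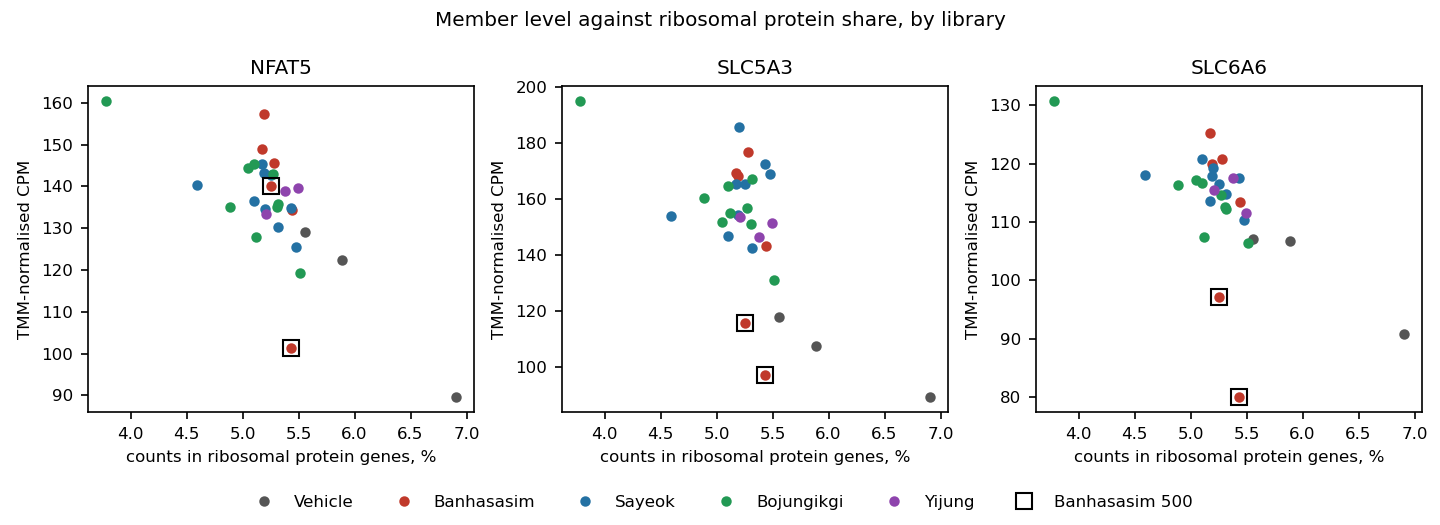
Level of NFAT5, SLC5A3 and SLC6A6 (TMM-normalised CPM, y axes not starting at 0) against the percent of counts in ribosomal protein genes (x axis), 1 point per library. Open squares mark Banhasasim at 500 µg/mL, which has SLC5A3 and SLC6A6 levels as low as vehicle at ribosomal protein shares of 5.43% and 5.25%.

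The genes with the pattern most like each member were ranked by Pearson correlation over the 13 group means of log2(CPM + 0.5), which share libraries, depth and normalisation. DMXL1, RBL2 and DENND11 were most like NFAT5, with Pearson r of 0.979, 0.97 and 0.967. For SLC5A3 they were TRAF6 (0.976), YTHDF3 (0.967) and the pseudogene HERC2P3 (0.958), and for SLC6A6 they were PRDM10 (0.976), MACF1 (0.97) and EIF4EBP2 (0.96). DMXL1 averaged 46.4 CPM in Banhasasim at 500 µg/mL, against 56.3 CPM at 20 µg/mL and 42.0 CPM in vehicle, and TRAF6 averaged 19.1, 23.3 and 19.1 CPM in the same groups. Spearman's rho was 0.896 to 0.945 for the 3 genes like NFAT5 and 0.753 to 0.846 for those like SLC5A3. For SLC6A6 it was lower than r, at 0.714 for PRDM10, 0.665 for MACF1 and 0.445 for EIF4EBP2. None of these 9 genes is on the pathway lists below. SGK1 had weaker matches, ZNF211 (0.806), ARFIP2 (0.756) and CFAP119 (0.733), with rho of 0.731 to 0.863.

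Genes that work with the members were read from 5 lists of 100 genes in all, of which 86 passed the filter. The lists were chosen with earlier results of these data known. Their shares of called genes, between doses and against vehicle, are therefore descriptions and no test of the lists. The 14 that did not had at most 9 counts in any library and include the betaine transporter SLC6A12 (at most 8 counts), the inositol transporter SLC5A11 (at most 8), the inositol oxygenase MIOX (at most 2), the glucocorticoid receptor NR3C1 (at most 3) and the epithelial sodium channel subunits SCNN1B and SCNN1G (at most 2 and 1). In Banhasasim between 500 and 20 µg/mL 14 of the 86 genes (16.3%) passed an adjusted p of 0.05 in edgeR's quasi-likelihood test, 9 higher and 5 lower, against 1468 of all genes, or 7.82%. The count over all genes was 626 without replicate 2 of the 500 µg/mL group, and 769 and 749 without replicates 2 and 3 of the 20 µg/mL group. In Sayeok 7 of 86 (8.14%) passed, 2 higher and 5 lower, against 597 of all genes, or 3.18%, which was 386 and 384 without replicates 1 and 2 of the 500 µg/mL group. In Bojungikgi 4 of 86 (4.65%) passed, 2 each way, against 331 of all genes, or 1.76%, which was 164 and 171 without replicates 2 and 3 of the 20 µg/mL group. The 4 became 2 when any 1 of replicates 1 and 2 at 500 µg/mL or replicates 1, 2 and 3 at 20 µg/mL was left out.

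Of the osmolyte transport and tonicity list 3 of 16 genes rose in Banhasasim between 500 and 20 µg/mL and none fell, with a list median of 0.02 on the log2 scale beside 0.005 over all genes. SLC38A2, the sodium-coupled neutral amino acid transporter SNAT2 that is induced by hypertonicity, had 300 and 318 CPM in Banhasasim at 500 µg/mL, against 234.2 and 248.8 CPM at 20 µg/mL. It was thus higher where the inositol and taurine transporters were lower (log2 difference 0.36 ± 0.06, adjusted p = 3.24e-04). GPCPD1, which breaks down the osmolyte glycerophosphocholine, averaged 11.2 ± 1.12 CPM at 500 µg/mL, against 6.52 ± 0.176 CPM at 20 µg/mL (SD, n = 2 each; adjusted p = 5.2e-05, edgeR). AQP3, a water and glycerol channel of colon epithelium, averaged 122 ± 5.78 CPM at 500 µg/mL, against 97.9 ± 0.442 CPM at 20 µg/mL (log2 difference 0.32 ± 0.07, adjusted p = 0.00206, edgeR, n = 2 each), and was not called without replicate 2 of the 500 µg/mL group (0.28). In Bojungikgi AQP3 was the 1 called gene of this list, at 110 ± 2.86 CPM against 91.3 ± 2.60 CPM (adjusted p = 0.00613, edgeR, n = 3 each), and it was not called without replicate 3 of the 20 µg/mL group (0.24). In Sayeok none of the 16 passed.

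The RefSeq promoter window of SLC38A2 holds a match to the tonicity-responsive enhancer, a motif found in 4.92% of all windows on either strand. It lies on the opposite strand, starting 28 bases into the gene, and is shown in capitals in 30 bases at chr12:46372726-46372755, written along the minus strand of the gene.
SLC38A2: cgccttagaACGCCTTTCCAgtactgctag
The match is a description of these letters and not a bound site.

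The polyol, inositol and taurine list had 2 genes higher and 2 lower of 12 in Banhasasim. AKR1B10 had the largest change of the list, at 190 ± 7.53 CPM in Banhasasim at 500 µg/mL, against 93.9 ± 2.58 CPM at 20 µg/mL (SD, n = 2 each), a log2 difference of 1.02 ± 0.07 (adjusted p = 2.77e-10, edgeR). It also rose in Sayeok, by 0.91 ± 0.06 (adjusted p = 4.58e-10), and in Bojungikgi, by 0.68 ± 0.06 (adjusted p = 8.92e-08). The 2 inositol monophosphatases, which free myo-inositol from its phosphate, went opposite ways in Banhasasim, IMPA2 by 0.34 ± 0.08 (adjusted p = 0.00843) and IMPA1 by -0.34 ± 0.07 (adjusted p = 0.00124). INPP4B, a phosphoinositide 4-phosphatase, fell by 0.42 in Banhasasim (adjusted p = 0.00451) and by 0.31 in Sayeok (adjusted p = 0.0229). IMPA2 was not called without replicate 2 of the 500 µg/mL group (0.30) or of the 20 µg/mL group (0.31). INPP4B in Banhasasim was not called without replicate 2 at 500 µg/mL (-0.28) or replicate 3 at 20 µg/mL (-0.40). In Sayeok it was not called without any 1 of replicates 1, 2 and 3 at 500 µg/mL (-0.30, -0.33 and -0.31) or replicates 1 and 3 at 20 µg/mL (-0.33 and -0.28).

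Of the NFAT5 regulators and NFAT family 2 of 19 genes rose in Banhasasim and none fell. FYN, a Src-family kinase linked to NFAT5 activation by hypertonicity, averaged 9.80 ± 0.802 CPM at 500 µg/mL, against 7.44 ± 0.0617 CPM at 20 µg/mL (SD, n = 2 each; adjusted p = 0.00444, edgeR). In Sayeok it moved the other way, 6.37 ± 0.397 CPM at 500 µg/mL against 8.32 ± 0.410 CPM at 20 µg/mL (SD, n = 3 each; adjusted p = 0.00245, edgeR). CCM2, a scaffold of the p38 kinase cascade that responds to hypertonicity, rose by 0.27 ± 0.06 in Banhasasim (adjusted p = 0.00467). In Banhasasim FYN was not called without replicate 3 at 500 µg/mL (0.30) or replicate 2 at 20 µg/mL (0.38), and CCM2 not without replicate 2 at 500 µg/mL (0.23) or at 20 µg/mL (0.26). In Bojungikgi none of the 19 passed.

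Ion transport for cell volume had 1 gene higher and 2 lower of 19 in Banhasasim. SLC12A2, the sodium-potassium-chloride cotransporter NKCC1 that loads ions into shrunken cells, had 476 and 498 CPM in Banhasasim at 500 µg/mL, against 796 and 854 CPM at 20 µg/mL. All other libraries lay above the 2 at 500 µg/mL, and the log2 difference was -0.76 ± 0.12 (adjusted p = 1.55e-04, edgeR). In Sayeok SLC12A2 averaged 701 ± 46.4 CPM at 500 µg/mL, against 723 ± 91.5 CPM at 20 µg/mL, and in Bojungikgi 752 ± 91.9 CPM, against 774 ± 62.9 CPM (adjusted p = 0.907 and 0.9, edgeR, n = 3 each). WNK4, a kinase upstream of such cotransporters, was lower at 500 than at 20 µg/mL in all 3 extracts, by 0.46 in Banhasasim (adjusted p = 3.55e-04), by 0.42 in Sayeok (adjusted p = 2.36e-04) and by 0.26 in Bojungikgi (adjusted p = 0.0287). Its means were 10.89, 10.52 and 11.73 CPM at 500 µg/mL and 14.95, 14.02 and 14.07 CPM at 20 µg/mL. The vehicle mean of WNK4, 11.68 CPM, lay near those at 500 µg/mL. LRRC8D, a subunit of volume-regulated anion channels that favours organic osmolytes such as taurine, rose by 0.26 ± 0.05 in Banhasasim (adjusted p = 0.00202), and was not called without replicate 3 at 500 µg/mL (0.20). The Bojungikgi call of WNK4 was lost without any 1 of replicates 1 and 2 at 500 µg/mL or replicates 1, 2 and 3 at 20 µg/mL, at -0.28 to -0.25.

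In the SGK1 network and corticoid list 1 of 20 genes rose and 1 fell in Banhasasim. TSC22D3, the glucocorticoid-induced leucine zipper, averaged 26.1 ± 2.09 CPM at 500 µg/mL, against 19.5 ± 0.103 CPM at 20 µg/mL (adjusted p = 3.62e-04, edgeR, n = 2 each). NR3C2, the mineralocorticoid receptor, averaged 4.80 ± 0.0871 CPM at 500 µg/mL, against 7.12 ± 0.119 CPM at 20 µg/mL (adjusted p = 1.49e-04, edgeR, n = 2 each), and fell by 0.39 in Sayeok (adjusted p = 0.00232). NDRG1, whose product SGK1 phosphorylates, rose in Sayeok, 32.5 ± 5.23 CPM at 500 µg/mL against 18.7 ± 0.207 CPM at 20 µg/mL (adjusted p = 0.00193, edgeR, n = 3 each), while in Banhasasim it was 14.7 ± 1.62 CPM against 16.2 ± 0.513 CPM. KCNQ1, a potassium channel subunit, fell by 0.27 in Sayeok (adjusted p = 0.0177) and by 0.28 in Bojungikgi (adjusted p = 0.0181). The KCNQ1 call was lost in Sayeok without replicate 1 or 3 at 500 µg/mL or replicate 1 or 2 at 20 µg/mL (-0.275 to -0.239), and in Bojungikgi without replicate 1 or 2 at either dose (-0.268 to -0.222).

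**Figure D5:**
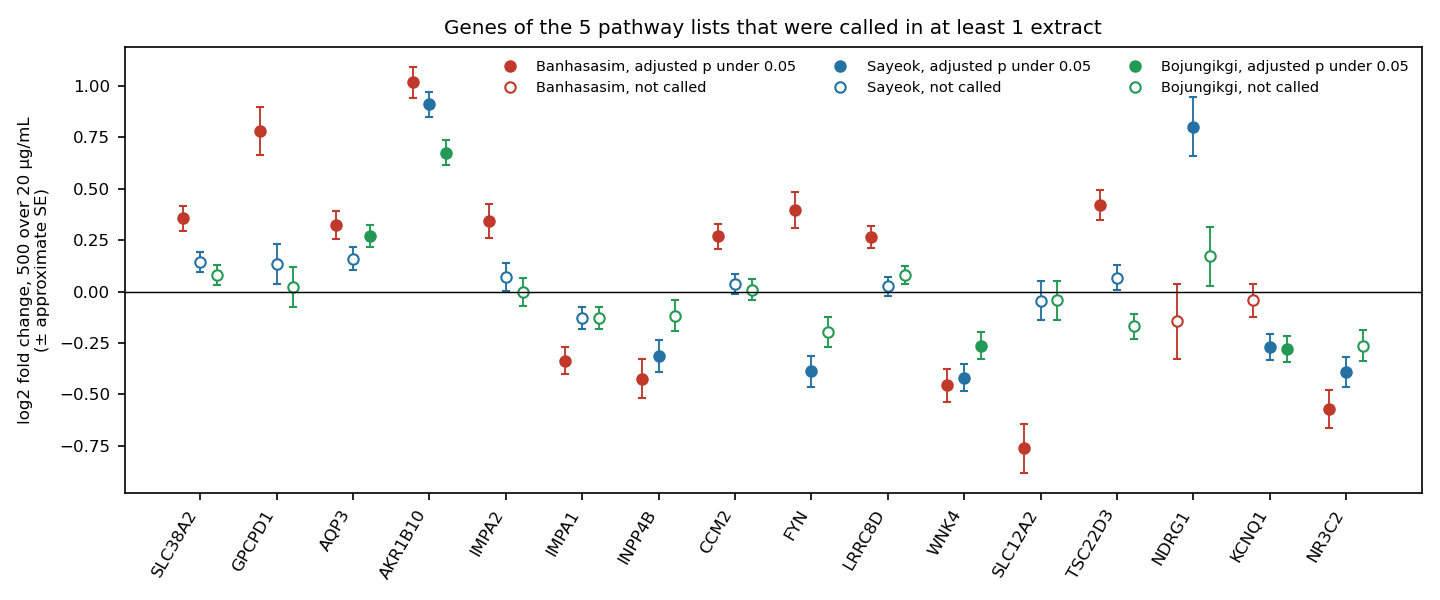
Log2 fold change between 500 and 20 µg/mL (± approximate SE) of the 16 list genes called in at least 1 of Banhasasim, Sayeok and Bojungikgi; filled points passed an adjusted p of 0.05 and open points did not. AKR1B10 and WNK4 are filled in all 3 extracts, at 0.68 to 1.02 and -0.46 to -0.26, while SLC12A2 is filled in Banhasasim alone.

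The difference between extracts was tested by interaction terms, which passed for 196 genes (1.04%) between Banhasasim and Sayeok and 386 genes (2.06%) between Banhasasim and Bojungikgi. These counts were 128, 125 and 116, and 170, 198 and 188, without replicate 2 at 500 µg/mL and replicates 2 and 3 at 20 µg/mL of Banhasasim. Of the 86 list genes 4 passed in each, 3 with the higher change in Banhasasim and 1 with the lower. SLC12A2 had the lower change in Banhasasim, with differences of log2 fold change of -0.72 ± 0.15 from Sayeok (adjusted p = 0.0171) and -0.72 ± 0.15 from Bojungikgi (adjusted p = 0.0117). FYN differed by 0.78 ± 0.12 from Sayeok (adjusted p = 1.88e-04) and 0.59 ± 0.12 from Bojungikgi (adjusted p = 0.00426), and both calls were kept when any 1 library was left out, the one against Bojungikgi being lost in a fit of only the groups compared (0.60). GPCPD1 differed by 0.65 ± 0.15 (adjusted p = 0.0333) and 0.76 ± 0.15 (adjusted p = 0.00536), TSC22D3 from Bojungikgi by 0.59 ± 0.10 (adjusted p = 4.98e-04) and ALDH7A1, which makes the osmolyte betaine, from Sayeok by 0.26 ± 0.07 (adjusted p = 0.0439). The SLC12A2 calls were lost without replicate 2 at 500 µg/mL or replicate 3 at 20 µg/mL of Banhasasim, at -0.68 to -0.66, and the call against Sayeok also without Sayeok replicate 2 at 500 µg/mL (-0.68). The GPCPD1 call against Bojungikgi was lost without Banhasasim replicate 2 at 500 µg/mL (0.66). Against Sayeok it was lost without that library (0.55 on the log2 scale), replicate 2 or 3 of Banhasasim at 20 µg/mL (0.62 and 0.68), replicate 1 or 3 of Sayeok at 500 µg/mL (0.61 each) or replicate 1 or 3 of Sayeok at 20 µg/mL (0.59 and 0.61). ALDH7A1 was called in the full set and was not called when any 1 of 9 of the 10 libraries was left out, at 0.235 to 0.289.

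Against vehicle, calls were wider. At 500 µg/mL 25 of the 86 genes (29.1%) passed in Banhasasim, 15 higher and 10 lower, against 15.3% of all genes. In Sayeok 24 (27.9%) passed, 15 higher and 9 lower, against 16.6%, and in Bojungikgi 34 (39.5%), 26 higher and 8 lower, against 29.7%. Leaving out vehicle replicate 1 left 12 list genes in Sayeok and 18 in Bojungikgi, and 1479 of 3117 and 2788 of 5580 genes in all. Without Sayeok replicate 2 or 3 the counts were 15 list genes each and 1771 and 1978 genes in all, without Bojungikgi replicate 2 they were 20 and 3119, and without Banhasasim replicate 2 or 3 the count over all genes was 1904 and 1463 in place of 2870. SLC38A2 was the one osmolyte transporter of the lists called in all 3, at 309 ± 12.4 CPM in Banhasasim, 259 ± 10.3 in Sayeok and 241 ± 11.4 in Bojungikgi, against 178 ± 9.80 CPM in vehicle (SD, n = 2, 3, 3 and 3). Its log2 differences were 0.79 ± 0.06, 0.54 ± 0.05 and 0.43 ± 0.05 (adjusted p = 7.39e-11, 1.18e-07 and 3.86e-06, edgeR). At 20 µg/mL SLC38A2 already averaged 241.5, 234.9 and 227.8 CPM in Banhasasim, Sayeok and Bojungikgi, above vehicle at the lowest dose too.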

How the data were processed

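Per the labels, libraries were made from total RNA of HT29 cells with a directional MGI kit and read as 100 bp pairs. Values are the authors' expected counts for each gene, with RSEM 1.3.3 and STAR 2.7.3a named in the submitters' processing notes beside GRCh38, FastQC 0.11.9 and Trim Galore 0.6.5. Neither the annotation release nor RSEM's strand option is stated in the sources used here, so reads in overlapping genes may be split either way. The table has 270 columns, of which 240 were not used. Expected counts were rounded (25.48% of values above 0 were not whole). Hot water extracts and wortmannin were not analysed here.

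Genes passing filterByExpr (minimum count 10) were fitted in edgeR 4.0.16 (R 4.3.3) with TMM normalisation and 1 mean per group, giving a biological coefficient of variation of 6.38% with 17 residual degrees of freedom. Tests were two-sided quasi-likelihood tests, with calls made below 0.05 after Benjamini-Hochberg adjustment over all genes, and every adjusted p in the text is of this kind. The statistic was first tested on simulated counts with independent noise and no library-wide differences other than depth. That test cannot show how calls hold under the library differences described above. SEs of log2 fold changes are approximate, from the fold change and its F statistic. Members, lists and comparisons were chosen with earlier results of these data known. All members are described; up to 4 called genes of each list per comparison (smallest p, a group mean of 1 CPM or more) were eligible to be named, against vehicle only SLC38A2, besides the 3 genes most like each member (at least 5 CPM on average) and the genes that overlap or resemble a member. Vehicle means of WNK4, IMPA2 and CCM2 are given as values only. Depth bounds low genes: 3 counts correspond to 0.042 to 0.083 CPM, counting error only. Symbols were found for 56558 of 60675 gene IDs. Coordinates and exons are from GENCODE 29, and promoters from RefSeq. Other choices tried were RLE factors, TMM from nuclear genes, no filter, a fit of only the groups compared, a replicate block, DESeq2 1.42.0, each library left out, CPM without TMM and Spearman correlation.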

Additional observations from a re-analysis of the deposited data

Results flagged for a closer look

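Between 500 and 20 µg/mL, 5 genes of the pathway lists differed between extracts by test, and member differences are given as values. For SLC5A3 every Banhasasim library at 500 µg/mL lay below those at 20 µg/mL and every Sayeok library at 500 µg/mL lay above those at 20 µg/mL, with a difference of log2 fold changes of -0.84. Against Bojungikgi the difference was -0.83 for SLC5A3, and for SLC6A6 it was -0.46 from Sayeok and -0.50 from Bojungikgi. For NFAT5 the differences from Sayeok and Bojungikgi were -0.18 and -0.29, and without replicate 2 of Banhasasim at 500 µg/mL they were 0.04 and -0.07. These member differences were not tested, since the genes were chosen with these values known.

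By interaction terms in edgeR, Banhasasim differed from Sayeok for FYN (0.78 on the log2 scale), GPCPD1 (0.65), ALDH7A1 (0.26) and SLC12A2 (-0.72). It differed from Bojungikgi for GPCPD1 (0.76), FYN (0.59), TSC22D3 (0.59) and SLC12A2 (-0.72). Banhasasim at 500 µg/mL is also the group with 9.41% and 12.9% of counts in mitochondrial ribosomal RNA, and the part of this in these differences was not tested.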

How the results depend on the processing

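No called result changed direction under any alternative run. The untested NFAT5 difference between Banhasasim and Sayeok changed sign without replicate 2 of Banhasasim at 500 µg/mL (0.04). The 4 well-expressed members kept their log2 differences within 1 SD of the replicates under RLE factors, TMM from nuclear genes, a fit of only the groups compared, the replicate block and DESeq2; without the filter SGK1 in Banhasasim between doses moved to -0.058. CPM without TMM gave SLC5A3 98.8 CPM in Banhasasim at 500 µg/mL, against 176 CPM at 20 µg/mL and 102 CPM in vehicle, and SGK1 78.8 CPM against 89.2 CPM at 20 µg/mL. With no filter 606 genes were called in Bojungikgi between doses and 327 and 963 in the interactions with Sayeok and Bojungikgi. With only the groups compared, calls were 55 in Bojungikgi between doses (1 list gene), 601 in Banhasasim (9 list genes), 1174 in Sayeok (9) and 139 in Bojungikgi (2) against vehicle, and 153 in the interaction with Bojungikgi; that fit has fewer libraries for the spread. Otherwise the cause was not tested. The SLC12A2, SLC38A2 and GPCPD1 calls in Banhasasim between doses were kept under each of these settings and DESeq2. The ALDH7A1 interaction was not called under RLE factors, TMM from nuclear genes, no filter or only the groups compared (0.253 to 0.261). The alternatives for MRPS6, given with its values, were chosen after seeing the data. By Spearman correlation 2 of the 12 genes most like a member were named again.

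Where leaving out 1 library leaves a Banhasasim group with a lone library, that library is assumed to vary like the other groups. Leaving out 1 library gave 626 to 1514 called genes in Banhasasim, 384 to 445 in Sayeok and 164 to 340 in Bojungikgi between doses, 1463 to 3078, 1479 to 3790 and 2788 to 6055 against vehicle, and 116 to 197 and 170 to 534 in the interactions. List genes called were 2 to 4 in Bojungikgi between doses and 12 to 28 in Sayeok and 18 to 37 in Bojungikgi against vehicle. In Banhasasim between doses NFAT5 ranged from -0.547 to -0.07, SLC5A3 from -0.842 to -0.576, SLC6A6 from -0.631 to -0.34 and SGK1 from -0.059 to -0.036.

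The replicate numbers were not taken to pair the libraries. Deviations of same-numbered libraries from their group means had correlations of -0.239 to 0.343, with no comparison above 0.1 in every pair. Deviations within a group sum to 0, so these correlations are linked, and they cannot show that the libraries are unpaired. With the number as a block, 1553 genes were called in Banhasasim between doses, SLC5A3 stood at -0.70, and of the calls named in the text only MRPS6 in Banhasasim against vehicle was lost (adjusted p = 0.0814). Depth limits AKR1B1, whose few counts allow no statement on a change.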
